A study of Mus musculus with 24 samples.

Results

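Repeat transcripts were compared between the input RNA of the RBC and WT26 embryonic stem (ES) cell lines, the control lines of the study. Members were all rows of the MeRIP-seq count table that name a repeat subfamily with its family and class instead of an Ensembl gene. There were 1153 such rows among 49090 (the other 47937 were genes), and 4 of the 24 libraries of the series entered the comparison, the 2 input replicates of each line. Input is fragmented RNA set aside before precipitation with an antibody against N6-methyladenosine (m6A), so that its counts report the level of a transcript and not its methylation.

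WT26 cells are labelled wild type and are the parental line of a Mettl14 KO clone (A10). RBC cells are labelled Rosa26 BirA-V5 with Cre-ERT2, an inducible recombinase, and are the parental line of a Mettl3 KO clone (2c4d). Both controls have a mixed 129/Sv and C57Bl6 background, and Mettl3 and Mettl14 are the subunits of the m6A methyltransferase. The study prepared nuclear RNA, which the labels call total RNA. Each control is 1 line, so that a difference between the lines cannot be told apart from a difference between their histories or genomes. The study describes 2 biological replicates, while nothing in the labels says that they came from separate cultures.

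Repeats make up a large part of the mouse genome. LINE elements such as L1 copy themselves through RNA with their own reverse transcriptase, and the young mouse L1 subfamilies, A, T and Gf, hold most of the copies that can still move. SINE elements such as the B1 and B2 families borrow the L1 machinery. LTR elements are the remains of retroviruses, in which an internal part with the viral genes lies between long terminal repeats that carry the promoter. In ES cells many LTR elements are kept silent by Trim28 and Setdb1. Satellites are tandem arrays, many of them near centromeres, and GSAT_MM is the major satellite of pericentromeric heterochromatin. Many copies of a subfamily are nearly the same, so that reads were shared among copies and among related subfamilies by the counting software, and a count stands for a subfamily and not for a locus.

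The 4 input libraries held 22366463 and 13181389 counted reads in WT26 and 19302923 and 14804156 in RBC. Repeats took 39.5% and 35.7% of the reads in WT26 and 32.7% and 41.8% in RBC, so that the replicates of RBC lay on both sides of WT26. The same held for the shares of SINE and LTR elements. Levels are given as normalized counts, that is counts divided by a size factor computed from genes alone, and replicates of a line differed by more than sampling noise, as a chi-square statistic divided by its degrees of freedom was 71.7 in RBC and 69.5 in WT26. The RBC libraries also differed from WT26 and from each other in Y-linked genes, whose values are given with MURVY-int. The cell type check made no call for Pou5f1 (log2 fold change -0.08, adjusted p = 0.826), Sox2 (0.06, adjusted p = 0.886) or Nanog (0.28, adjusted p = 0.322), the core ES cell factors, by edgeR's quasi-likelihood test. Mettl3 had 442 and 435 normalized counts in RBC and 339 and 293 in WT26 (adjusted p = 0.133, and called in 1 of the alternatives), and Mettl14 had 226 and 302 in RBC and 202 and 231 in WT26 (adjusted p = 0.461).

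**Figure D1:**
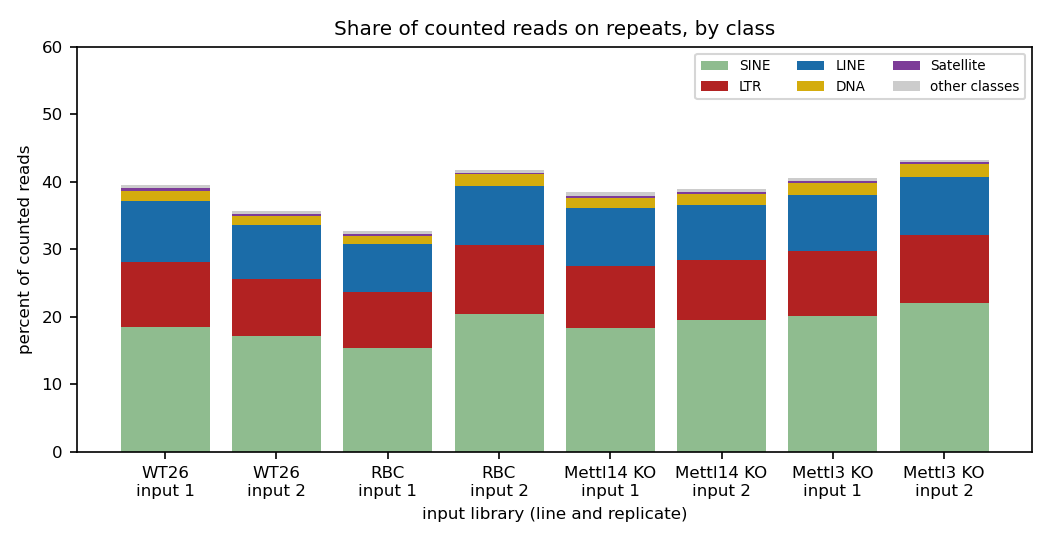
Percent of counted reads that fell on repeats in each of the 8 input libraries, stacked by class. RBC replicate 1 (32.7%) and RBC replicate 2 (41.8%) enclose both WT26 libraries (39.5% and 35.7%), and the share ran from 32.7% to 43.3% over the 8.

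Totals by class were compared first, and 0 of 14 were called. None of them passed an adjusted p of 0.05 in edgeR, where 4.49% of all tested rows (genes and class totals) did, none had an unadjusted p under 0.05, and DESeq2 called 0 as well. LINE transcripts summed to 1266434 and 1316591 normalized counts in RBC and 1298886 and 1316130 in WT26 (log2 fold change -0.02, SE 0.248, adjusted p = 0.984). SINE transcripts, the most abundant class, summed to 2756416 and 3093034 in RBC and 2671396 and 2811917 in WT26 (log2 fold change 0.09, SE 0.279, adjusted p = 0.920). LTR transcripts summed to 1470890 and 1545651 in RBC and 1396942 and 1361840 in WT26, with no overlap and a log2 fold change of 0.13 (SE 0.252, adjusted p = 0.863). The Satellite total was 48888 and 38877 in RBC and 55384 and 45048 in WT26 (log2 fold change -0.19, SE 0.211, adjusted p = 0.718), so that replicate 1 was the higher of each line. DNA transposons had a log2 fold change of 0.13 (adjusted p = 0.822). The class named RNA holds 7SK, a small RNA that restrains transcription elongation, and had the lowest value, with 10667 and 5849 in RBC and 12396 and 13119 in WT26 (log2 fold change -0.63, SE 0.299, adjusted p = 0.303). This class total RNA was called in 2 of the alternatives, one of them without a filter on low counts (adjusted p = 0.00244).

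Totals by family were compared in the same way. None of the 71 families tested was called in edgeR, against 4.50% of all rows in that table, 2 had an unadjusted p under 0.05 (MuDR, log2 fold change 0.56, adjusted p = 0.123, and UCON2, 0.69, adjusted p = 0.176), and DESeq2 called 0 with 3 under an unadjusted 0.05. Without a filter on low counts 2 were called. The L1 family summed to 1156868 and 1198317 normalized counts in RBC and 1192545 and 1211604 in WT26 (log2 fold change -0.03, SE 0.177). ERV1 summed to 113575 and 112487 in RBC and 95988 and 93012 in WT26, without overlap (log2 fold change 0.26, SE 0.151, adjusted p = 0.421). ERVK had a log2 fold change of 0.16 (SE 0.169), ERVL of 0.07 (SE 0.159) and ERVL-MaLR of 0.10 (SE 0.172), and the B1-related family named Alu, B2, B4 and MIR lay between 0.08 and 0.10. With standard errors of 0.151 to 0.186 in these families, differences of this size were not detectable.

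Single subfamilies did differ. In bulk RNA, fewer cells with a transcript and less of it per cell cannot be told apart. Of 1085 subfamilies tested (68 had too few reads), 12 were higher and 9 lower in RBC at an adjusted p of at most 0.05, while 2.45% of all 20299 tested rows were higher and 2.00% lower. Together 1.94% of the subfamilies were called, against 4.59% of the genes. Past a 2-fold change 6 subfamilies were higher and 1 was lower, and among all rows 1.24% were higher and 1.24% lower past that limit. In all 21 the libraries of the lines did not overlap, as in 46.5% of all tested rows. The called rows took 5.44% to 5.95% of the repeat reads in RBC and 6.06% to 6.17% in WT26. The weakest call was RLTR44E (adjusted p = 0.0331), and the next subfamily, IAPLTR4, had 878 and 680 in RBC and 1212 and 1074 in WT26 (log2 fold change -0.55, adjusted p = 0.0662). The count was 12 without WT26 replicate 1, 11 without WT26 replicate 2, 19 without RBC replicate 1, 15 without RBC replicate 2 and 3 in a fit of all 16 input and IP libraries. It was 25 with DESeq2, 34 without a filter on low counts and at most 42 (20 higher and 22 lower) over all alternatives, and 10 of the 21 were called whichever library was left out.

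**Figure D2:**
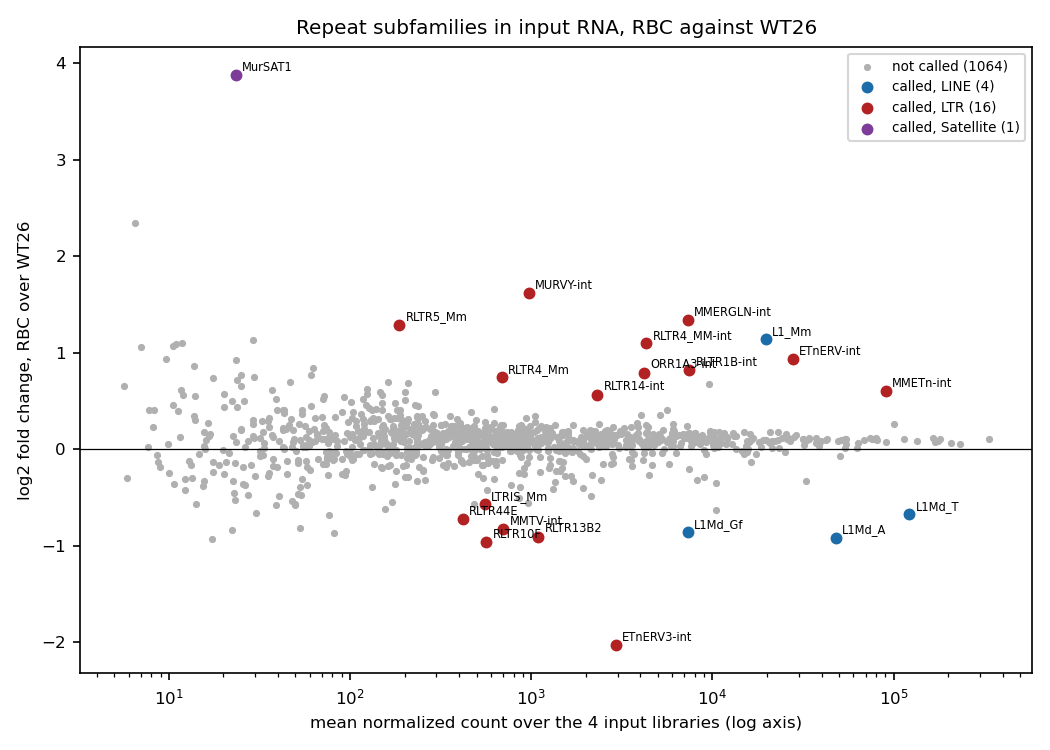
Log2 fold change of RBC over WT26 against the mean normalized count over the 4 input libraries (log axis) for the 1085 tested subfamilies, with the 21 called ones in color by class and named. The called rows are 16 LTR, 4 LINE and 1 Satellite row, and the abundant uncalled rows at the right lie close to a log2 fold change of 0.1.

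The tested subfamilies leaned slightly upwards. The median log2 fold change over the 1085 was 0.10, and 74.3% were above 0, whereas genes had a median of -0.01 with 48.5% above 0. DNA transposons had a median of 0.15 (89.5% above 0), SINE elements of 0.10 (94.3% above 0) and ERVK elements of 0.04 (61.6% above 0). The median of all repeats was 0.15 without RBC replicate 1 and 0.03 without RBC replicate 2, the library with the largest repeat share. With libraries scaled to their total count the median of the repeats was 0.00 and that of the genes -0.12. The lean of the repeats above 0 thus depends on the scale, while their median stood above that of the genes on both scales.

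**Figure D3:**
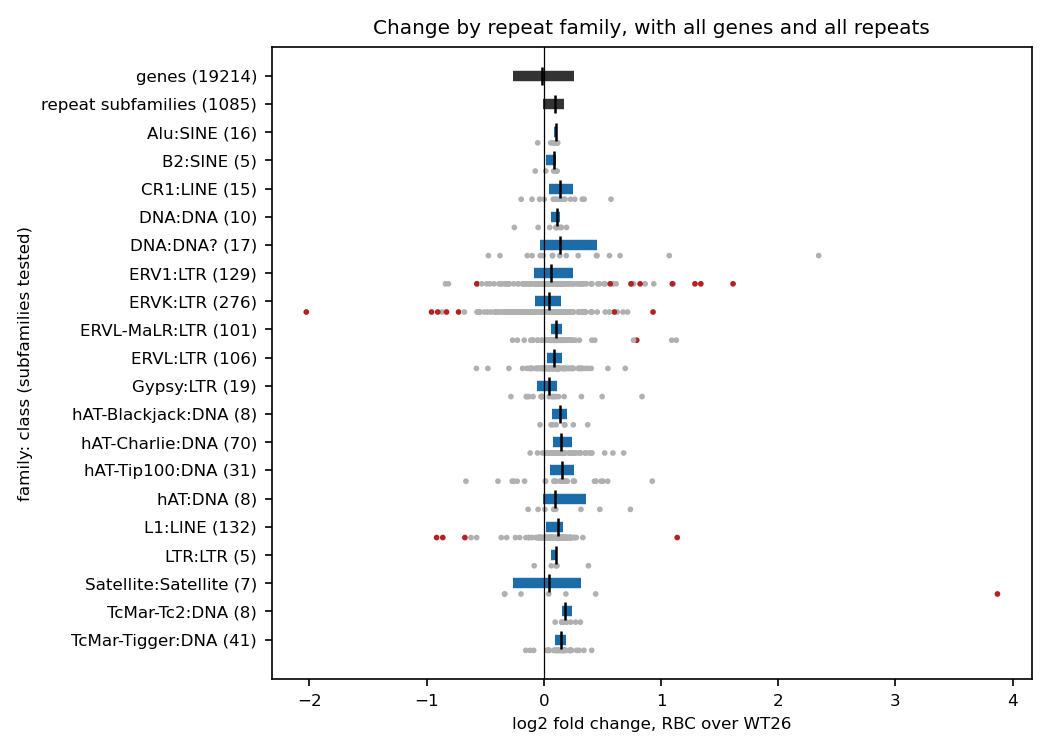
Log2 fold change of RBC over WT26 by family, for families with at least 5 tested subfamilies (number tested in brackets), with genes and all repeats on top. Bars span the interquartile range, the black tick is the median and points below each bar are single subfamilies, red where called; the bars sit near 0.1 for most families and the called points lie outside them, in ERV1, ERVK, ERVL-MaLR, L1 and Satellite.

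Among LINE elements the young L1 subfamilies separated. L1Md_A, one of the youngest, had 35520 and 30876 normalized counts in RBC and 58419 and 66789 in WT26. Both RBC libraries lay below both WT26 libraries, a log2 fold change of -0.92 (SE 0.115, adjusted p = 0.00176), or 1.89-fold lower. L1Md_T, the LINE subfamily with the most reads, had 102057 and 86274 in RBC and 148194 and 152241 in WT26 (log2 fold change -0.67, SE 0.109, adjusted p = 0.00673). L1Md_Gf had 6058 and 4341 in RBC and 9853 and 9052 in WT26 (log2 fold change -0.86, SE 0.166, adjusted p = 0.0164). These 3 made up 12.4% and 10.1% of the L1 reads of RBC and 18.2% and 18.8% of those of WT26.

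The other 3 L1Md rows were not called. L1Md_F2 had 97978 and 88270 in RBC and 85990 and 90759 in WT26 (log2 fold change 0.08, SE 0.0971, adjusted p = 0.769), L1Md_F3 had a log2 fold change of 0.07 (SE 0.103, adjusted p = 0.806) and L1Md_F one of -0.15 (SE 0.129, adjusted p = 0.618). Over the 6 the median was -0.41, beside 0.00 for all tested rows. Of 32 older rodent L1 subfamilies (the Lx, L1VL, L1_Mus, L1_Mur and L1_Rod series) 0 were called in edgeR (1 at an unadjusted p under 0.05) and 0 in DESeq2, with a range of -0.32 to 0.23, and L1VL1 had 4360 and 5116 in RBC and 4440 and 3631 in WT26 (adjusted p = 0.445).

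L1_Mm, a L1 consensus without a subfamily letter, went the other way. It had 23770 and 30232 normalized counts in RBC and 9740 and 14805 in WT26 (log2 fold change 1.14, SE 0.207, adjusted p = 0.0123). Its share of the L1 reads was 2.05% and 2.52% in RBC and 0.817% and 1.22% in WT26. The call was lost without RBC replicate 2 (adjusted p = 0.0719) and without WT26 replicate 1 (adjusted p = 0.104). L1Md_Gf was called in only 1 of the 4 fits that left out a library and L1Md_T in 2, while L1Md_A was called in 4. Since these rows share sequence, how reads were divided among them was not tested.

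Of 129 ERV1 subfamilies tested, the gammaretrovirus-like group of LTR elements, 7 were higher and 1 was lower in RBC, with a family median of 0.06. Together 6.20% were called, beside 4.45% of all tested rows. MURVY-int, the internal part of a retrovirus that was amplified on the mouse Y chromosome, had 1392 and 1522 normalized counts in RBC and 467 and 485 in WT26 (log2 fold change 1.61, SE 0.122, adjusted p = 6.21e-05). MMERGLN-int, the internal part of a murine leukaemia virus-like element, had 11099 and 9914 in RBC and 4199 and 4102 in WT26 (log2 fold change 1.34, SE 0.108, adjusted p = 1.02e-04). RLTR4_MM-int, also related to murine leukaemia virus, had 5816 and 5950 in RBC and 2781 and 2722 in WT26 (log2 fold change 1.10, SE 0.106, adjusted p = 2.98e-04). In all of them the replicates of a line differed far less than the lines.

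RLTR5_Mm was a rarer row, with 250 and 285 in RBC and 131 and 84.3 in WT26 (log2 fold change 1.29, SE 0.234, adjusted p = 0.0122). RLTR1B-int had 10649 and 8349 in RBC and 5524 and 5224 in WT26 (log2 fold change 0.82, SE 0.128, adjusted p = 0.00582), RLTR4_Mm 867 and 861 against 529 and 502 (0.74, adjusted p = 0.0101) and RLTR14-int 2812 and 2721 against 1906 and 1830 (0.57, adjusted p = 0.0181). LTRIS_Mm was the ERV1 row that was lower in RBC, with 441 and 448 against 620 and 705 in WT26 (log2 fold change -0.57, SE 0.122, adjusted p = 0.0247). The last of these rises and this fall were the least stable calls, as neither RLTR14-int nor LTRIS_Mm was called in any of the 4 fits that left out a library. RLTR5_Mm, RLTR1B-int and RLTR4_Mm were called in 2 of the 4 each.

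The rise of MURVY-int was set beside genes of the Y chromosome, which were chosen after their values were seen. Eif2s3y had 16.7 and 100.1 normalized counts in RBC and 432 and 374 in WT26, Ddx3y 36.1 and 141 against 454 and 518, and Uty 29.6 and 251 against 663 and 750. Of 6 such genes 5 were lower in RBC (log2 fold changes -3.18 to -2.35), and Zfy1 was not called (-1.23, adjusted p = 0.395). Uty was not called by DESeq2 (adjusted p = 0.175), in the fits of 4 or 16 libraries or without either WT26 replicate. Their sum was 87.9 and 517 in RBC and 1597 and 1754 in WT26, so that the RBC replicates also differed from each other. Whether the RBC libraries come from cells with and without the Y chromosome, or from a mixed line, was not tested, and every value of RBC rests on these 2 libraries. Of RBC and WT26, MURVY-int stood higher in the line whose Y-linked genes stood lower. That order did not hold over all lines. In Mettl14 KO input the sum was 4073 and 4243 and MURVY-int had 1033 and 941, both above WT26. In Mettl3 KO input the sum was 335 and 382 and MURVY-int had 2195 and 1965. A relation between them was not tested. Other subfamilies named after the Y chromosome, YREP_Mm (log2 fold change 0.14, adjusted p = 0.642) and MURVY-LTR (0.18, adjusted p = 0.526), were not called. Nor was the family total named Y-chromosome, which holds 1 row (817 and 905 in RBC, 816 and 847 in WT26, log2 fold change 0.05, adjusted p = 0.909).

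Of 134 internal rows tested in the LTR class 8 were higher and 2 lower in RBC, and of the 502 other LTR rows 2 were higher and 4 lower, beside 2.45% and 2.00% of all tested rows. The difference between internal and other rows was not tested. MMERGLN_LTR, the terminal repeat of MMERGLN-int, had 1080 and 989 in RBC and 831 and 821 in WT26 (log2 fold change 0.32, SE 0.119, adjusted p = 0.172), where the internal part had 1.34. RLTR1B had a log2 fold change of -0.12 (SE 0.112) beside 0.82 for RLTR1B-int, RLTR14 one of 0.05 (SE 0.116) beside 0.57 for RLTR14-int, and ORR1A3 one of 0.24 (SE 0.102) beside 0.79 for ORR1A3-int. Only RLTR4_Mm was called together with its internal part among the 6 pairs that share a name. These differences within an element were not tested, and the pairs were chosen by a called internal part, which favours a larger change there.

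**Figure D4:**
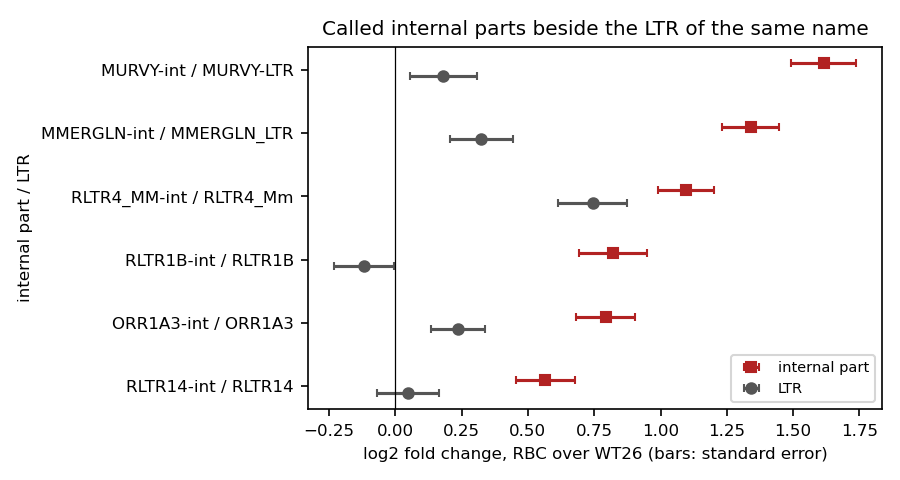
Log2 fold change of RBC over WT26 with its standard error for the 6 called internal parts that have an LTR of the same name in the table. Squares (internal parts) lie to the right of circles (LTRs) in each pair, from 0.57 to 1.61 for the internal parts and from -0.12 to 0.74 for the LTRs. Pairs were chosen by a called internal part, and all 6 were called higher in RBC, a choice that favours this order.

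Of 276 ERVK subfamilies tested, the betaretrovirus-like group, 2 were higher and 5 lower in RBC. Together 2.54% were called, a smaller share than the 4.45% of all tested rows. The largest fall among all repeats was ETnERV3-int, an internal part of the early transposon (ETn) group. It had 1062 and 1244 normalized counts in RBC and 5292 and 4103 in WT26 (log2 fold change -2.03, SE 0.144, adjusted p = 3.41e-05), was 4.08-fold lower in RBC and was called in every alternative run. Of the other 9 rows of its group 2 were higher in RBC. MMETn-int, the LTR-class row with the most reads, had 101986 and 116855 in RBC and 73023 and 71180 in WT26 (log2 fold change 0.60, SE 0.104, adjusted p = 0.00955), and ETnERV-int had 36017 and 36696 against 18706 and 19404 (log2 fold change 0.93, SE 0.114, adjusted p = 0.00156).

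ETn elements do not code for their own proteins and move with those of MusD, a related virus. Over the 10 rows of the ETn and MusD list the summed level was 156929 and 176502 in RBC and 111815 and 110158 in WT26. In this list 2 rows were higher and 1 lower, beside 2.45% and 2.00% of all tested rows. Its median log2 fold change was 0.11. ETnERV2-int had 1975 and 2250 in RBC and 2006 and 2199 in WT26 (log2 fold change 0.01, adjusted p = 0.986), and RLTRETN_Mm, the LTR of the group, had a log2 fold change of 0.05 (adjusted p = 0.905). ERVB7_1-LTR_MM had 9796 and 13875 in RBC and 6447 and 8379 in WT26, which do not overlap, but was not called (log2 fold change 0.67, SE 0.210, adjusted p = 0.105). MMETn-int lost its call with libraries scaled to total counts (log2 fold change 0.51, adjusted p = 0.220) and without either WT26 replicate, whereas ETnERV-int was called whichever library was left out.

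The other ERVK calls were all lower in RBC. RLTR13B2 had 701 and 820 normalized counts in RBC and 1474 and 1372 in WT26 (log2 fold change -0.91, SE 0.126, adjusted p = 0.00339), RLTR10F 392 and 373 against 657 and 834 (-0.96, SE 0.154, adjusted p = 0.00653) and RLTR44E 354 and 277 against 485 and 563 (-0.73, SE 0.167, adjusted p = 0.0331). MMTV-int, the internal part of mouse mammary tumour virus, had 521 and 489 in RBC and 887 and 910 in WT26 (log2 fold change -0.83, SE 0.125, adjusted p = 0.00506). RLTR13B2 and MMTV-int were called whichever library was left out, RLTR10F in 3 of the 4 fits and RLTR44E in 1.

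Intracisternal A particle (IAP) elements, among the most strictly silenced retroviruses of the mouse, were not called in any of 25 rows, and their log2 fold changes ran from -0.57 to 0.63 around a median of 0.00 (edgeR, with 4 at an unadjusted p under 0.05, and 1 called by DESeq2). IAPEz-int had 21031 and 24405 in RBC and 20334 and 22565 in WT26 (log2 fold change 0.08, SE 0.120, adjusted p = 0.800), and IAPEy-int had 1235 and 1033 against 956 and 1145 (0.11, SE 0.180, adjusted p = 0.823). RNERVK23-int had 156 and 149 in RBC and 167 and 179 in WT26 (log2 fold change -0.18, adjusted p = 0.741).

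ERVL elements gave 0 calls among 106 rows in edgeR (2 at an unadjusted p under 0.05) and 0 in DESeq2. MERVL-int, an element expressed at the two-cell stage of the embryo, had 13476 and 15298 in RBC and 12790 and 16337 in WT26 (log2 fold change -0.02, SE 0.165, adjusted p = 0.976), and its LTR MT2_Mm had 5797 and 6431 against 5529 and 6451 (0.03, SE 0.129, adjusted p = 0.947). The 8 rows of this group lay between -0.02 and 0.16. Among the 101 ERVL-MaLR rows ORR1A3-int alone was called, with 5336 and 5311 in RBC and 3261 and 2882 in WT26 (log2 fold change 0.79, SE 0.113, adjusted p = 0.00378).

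Satellite transcripts were few and uneven. GSAT_MM, the major satellite, had 1261 and 457 normalized counts in RBC and 1476 and 475 in WT26 (log2 fold change -0.19, SE 0.579, adjusted p = 0.917), so that replicate 1 was the higher by far in each line and a moderate difference between the lines was not detectable. SYNREP_MM had 209 and 201 in RBC and 164 and 366 in WT26 (adjusted p = 0.810). MMSAT4, the Satellite row with the most reads, had 33116 and 24938 in RBC and 40435 and 32756 in WT26, which overlap (log2 fold change -0.33, SE 0.165, adjusted p = 0.330, and called in 1 of the alternatives). MurSAT1 was the called row and was named after its values were seen, since it is too rare for the naming rule: 66 and 27 reads in RBC and 6 and 1 in WT26. It passed the filter on low counts through groups where it is high, RBC and Mettl14 KO (1445 and 1935 normalized counts). From the level of WT26 a fall could hardly have been called. The ratio of the summed counts of RBC over WT26 was 15.2, with a 95% interval of 7.09 to 38.8 for counting error only (exact binomial). This interval leaves out the spread between replicates. By edgeR the log2 fold change was 3.87 (SE 0.546, adjusted p = 0.0036).

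SINE elements had 0 called rows among 35 and DNA transposons 0 among 191 in edgeR (1 and 10 at an unadjusted p under 0.05), and DESeq2 called 0 in either class. B3, the SINE row with the most reads, had 327280 and 366130 normalized counts in RBC and 319963 and 324819 in WT26 (log2 fold change 0.10, SE 0.0978, adjusted p = 0.661). URR1A led the DNA transposons with 27716 and 31258 in RBC and 26549 and 27439 in WT26 (log2 fold change 0.13, SE 0.110, adjusted p = 0.629). The lines did not overlap in either row, but the differences were close to their standard errors.

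**Figure D5:**
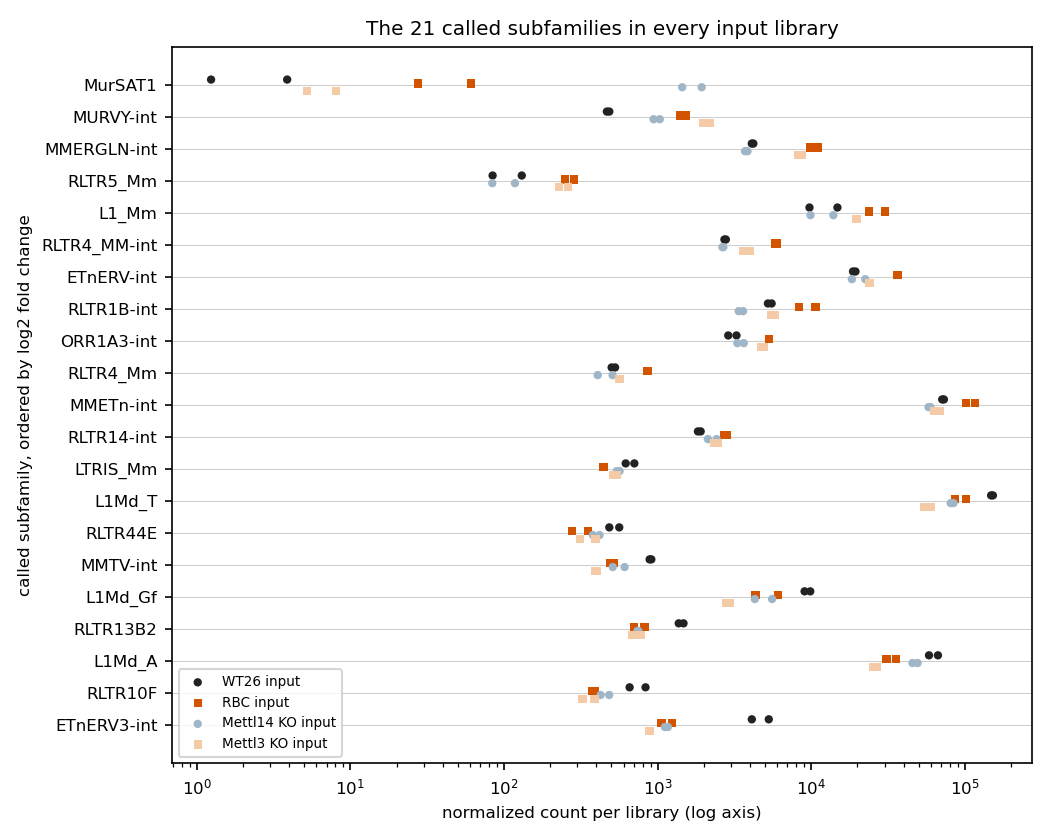
Normalized counts (log axis) of the 21 called subfamilies in each of the 8 input libraries, ordered by log2 fold change of RBC over WT26 with the highest on top. Dark circles are WT26, orange squares RBC, pale circles the Mettl14 KO clone made from WT26 and pale squares the Mettl3 KO clone made from RBC; in the row of ETnERV3-int the WT26 libraries stand alone above the other 6.

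The KO clones gave libraries of their own from cells derived from the same lines, and Mettl3 KO input was compared with Mettl14 KO input, a comparison chosen after the data had been seen. It called 12.5% of all tested rows and 31 of the 1085 repeats (16 higher and 15 lower in Mettl3 KO). Of the 21 subfamilies, 20 had the same direction there and 11 of these were called. The share of all tested rows that kept their direction was not computed, so that 20 of 21 has no baseline. The knocked-out gene differs as well as the line, and the effects of line and KO cannot be told apart in this comparison.

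MMERGLN-int had 8238 and 8705 normalized counts in Mettl3 KO and 3845 and 3707 in Mettl14 KO (log2 fold change 1.17, SE 0.108, adjusted p = 1.59e-04). MURVY-int had 2195 and 1965 in Mettl3 KO and 1033 and 941 in Mettl14 KO (1.07, adjusted p = 5.36e-04), RLTR5_Mm 262 and 229 against 83.9 and 118 (1.32, adjusted p = 0.00694) and L1_Mm 19672 and 19583 against 9887 and 13926 (0.72, adjusted p = 0.0425). L1Md_A had 25455 and 26781 in Mettl3 KO and 49233 and 45604 in Mettl14 KO (log2 fold change -0.86, SE 0.114, adjusted p = 0.00133). L1Md_T (-0.53, adjusted p = 0.0113), L1Md_Gf (-0.78, adjusted p = 0.0134), MMTV-int (-0.51, adjusted p = 0.0264), RLTR4_MM-int (0.51, adjusted p = 0.0109), RLTR1B-int (0.69, adjusted p = 0.00726) and ORR1A3-int (0.48, adjusted p = 0.0206) complete the 11.

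ETnERV3-int was not among them. It had 878 and 894 in Mettl3 KO and 1166 and 1115 in Mettl14 KO (log2 fold change -0.37, SE 0.142, adjusted p = 0.118), so that WT26 was the only line of the 4 with a high level. RLTR13B2 had 774 and 679 in Mettl3 KO and 751 and 740 in Mettl14 KO (-0.04, adjusted p = 0.890), again with WT26 alone above. For MMETn-int (0.16, adjusted p = 0.347) and ETnERV-int (0.24, adjusted p = 0.200) RBC was instead the line that stood above the other 3, with 63104 and 68566 counts of MMETn-int in Mettl3 KO and 59773 and 57972 in Mettl14 KO. MurSAT1 was the exception in direction, since Mettl14 KO had 1445 and 1935 normalized counts and Mettl3 KO 8.07 and 5.20 (log2 fold change -7.89, adjusted p = 1.07e-06).

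In the m6A IP libraries, made from the same preparations and scaled among themselves, 16 of the 21 had the same order of RBC and WT26 without overlap and 5 overlapped, while 25.6% of all tested rows did not overlap there in either direction. MURVY-int had 2345 and 3315 normalized counts in RBC IP and 355 and 362 in WT26 IP, and ETnERV3-int 1057 and 557 against 6387 and 3982. L1Md_A had 97526 and 147160 against 229422 and 526674. L1_Mm overlapped, with 21932 and 28776 in RBC IP and 21106 and 37388 in WT26 IP, as did MMETn-int with 72251 and 25030 against 36610 and 12949, ETnERV-int, MMTV-int and RLTR44E. These values depend on m6A as well as on the level of the transcript and were not tested.

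A list made for repeat silencing also holds Tet1, Tet2, Mettl3 and Mettl14. Of its 41 genes with a row, 3 were higher and 1 lower in RBC, where 4.59% of all genes were called in either direction. The median log2 fold change of the list was -0.06. Mphosph8 (900 and 931 normalized counts in RBC, 624 and 590 in WT26, adjusted p = 0.0173) and Fam208a (3205 and 3726 against 2278 and 2215, adjusted p = 0.0192), which encode subunits of the HUSH complex that silences young L1 and retroviral copies, were higher by 0.59 and 0.63 on the log2 scale. Pphln1, which encodes another HUSH subunit, was not called (203 and 273 against 212 and 283, log2 fold change -0.05, adjusted p = 0.942). Also called were Zmym2, which encodes a zinc finger protein of corepressor complexes and was higher (log2 fold change 0.63, adjusted p = 0.0180), and Dnmt3b, a de novo DNA methyltransferase, which was lower (447 and 406 against 653 and 651, -0.61, adjusted p = 0.0455). None of these 4 passed 2-fold, none was called in all 4 fits that left out a library, and Mphosph8, Fam208a and Zmym2 were not called with libraries scaled to total counts.

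For each marker list the share to set beside its calls is 4.59% of all tested genes, in either direction. With so few genes, 0 or 1 call says little about a list. Of 11 ES cell markers 1 was called, Zfp42, which was lower in RBC (1681 and 1803 against 2658 and 2536, log2 fold change -0.58, adjusted p = 0.0453). Its adjusted p was 0.0508 with TMM factors and 0.0660 with total-count scaling, and it was not called in the fit of all 16 libraries or in any of the 4 fits that left out a library. The sum of the list was 18586 and 19010 in RBC and 21397 and 20418 in WT26. Of 19 two-cell-like genes with a row 7 were tested and 0 called in edgeR (1 at an unadjusted p under 0.05) or DESeq2 (summed level 153 and 83.8 in RBC, 165 and 267 in WT26). Of 17 markers of differentiated cells 11 were tested and 1 was called, Pax6, a factor of neural progenitors, with 64.8 and 77.6 in RBC and 23.3 and 39.7 in WT26 (log2 fold change 1.23, adjusted p = 0.0396, and not called without any 1 of the 4 libraries). The summed level of that list was 581 and 431 in RBC and 435 and 421 in WT26, and Cdx2 was at 0 in all 4 libraries. The part of these genes in the repeat differences was not tested.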

How the data were processed

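Nuclear RNA of 4 ES cell lines was sequenced as input and as m6A IP, with 2 replicates each (16 libraries), and 8 further RNA-seq libraries with gene rows only were not used. The authors deposited raw counts per gene and per repeat subfamily, without normalization. Per the labels and the study's methods, reads were trimmed with cutadapt 1.8.1, aligned to GRCm38 with STAR 2.6.0c, which kept reads with many positions, and counted by TEtranscripts, which divides such reads among subfamilies, with the RepeatMasker annotation of UCSC. Several MeRIP reactions were combined per replicate, and 0 columns were left without a sample.

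From the counts, size factors (DESeq2 1.42.0, median of ratios) were computed over gene rows alone. The quasi-likelihood test of edgeR 4.0.16 in R 4.3.3 was fitted to the 8 input libraries in 4 groups, which share the estimate of spread (common biological coefficient of variation 0.158), after filterByExpr, with Benjamini-Hochberg adjustment over all rows tested. Standard errors are the log2 fold change divided by the root of the F statistic. Counts summed per family or class were tested with genes in separate tables. Calls needed an adjusted p no higher than 0.05, and a second count also a log2 fold change over 1 in size. The script was tested on simulated counts. Of 47937 gene identifiers 47224 had a symbol. With 2 replicates the spread between libraries, more than the total counts, limits precision, and p-values measure only that spread. It may be technical, although the study calls the replicates biological.

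Repeats were named when they led their class in reads, belonged to a list of repeats of interest, or were called with the 8 largest changes in each direction (no overlap, and 50 or more normalized counts on average) or the largest in a family of at least 5 tested rows. The remaining called rows (LTRIS_Mm, RLTR14-int, RLTR4_Mm and MurSAT1), IAPLTR4, uncalled rows set beside called ones, and listed genes called under 2-fold were named after their values were seen. The members, the lists and the tests were chosen with earlier results of these data known. Alternatives were TMM factors, scaling by total count, size factors with or from repeats, DESeq2's Wald test, other filters on low counts, fits of 4 or of 16 libraries, a block on the replicate number and leaving out each library. Positions and consensus sequences of repeats were not used here.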

Additional observations from a re-analysis of the deposited data

How the results depend on the processing

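All 21 called subfamilies kept their direction under every alternative, and of 1848 log2 fold changes recomputed for named repeats, named genes and totals 1629 kept direction and side of the threshold, 100 lost a call, 7 gained one, 0 called values turned, and 112 uncalled values changed sign. The main count of 21 subfamilies (12 higher and 9 lower) was 34 (19 and 15) without a filter on low counts and 3 (2 and 1) with all 16 libraries, whose common coefficient of variation was 0.273. Past 2-fold, against 7 (6 higher and 1 lower), all 16 libraries gave 3, with 2 higher, and 3 were lower with total-count scaling and 4 with size factors from repeats. Leaving out 1 library gave 11 to 19 subfamilies (7 to 11 higher, 4 to 8 lower), 1 to 3 lower past 2-fold and 0 to 3 listed genes instead of 6, where the lone library of a line is assumed to vary like the other groups. Listed genes called were 3 with total-count scaling, 11 without a filter and 0 with all 16 libraries. Without a filter 2 family totals and 1 class total (RNA) were called. Subfamilies called the same way in the KO clones fell from 11 to 1 with all 16 libraries. Scaling by total count moved the median of all genes from -0.01 to -0.12. MurSAT1 has no value with at least 10 counts in every library, and the KO clones none in a fit of 4 libraries. The cause of these changes was not tested.

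Replicate numbers are not said to mark a shared day or preparation, and with 2 numbers the labels alone do not pair the lines. Same-numbered input libraries deviated from their line's mean with a correlation of 0.272 between RBC and WT26 over 12707 rows (0.272 to 0.478 over all pairs of lines). With the replicate block 42 subfamilies were called (20 higher and 22 lower), the 21 among them, together with 1 family total and 1 class total (class total RNA, which is 7SK, log2 fold change -0.70, adjusted p = 0.0413), and MMSAT4 (-0.34, adjusted p = 0.0184) and Mettl3 (0.48, adjusted p = 0.0399) passed.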
